A study of Mus musculus with 12 samples.

Results

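The genes described here were 10 members of the mammalian heat shock response, taken by symbol from a table of 21004 mouse genes. They were Hsph1, Bag3, Hspa1a, Hspa1b, Hsp90aa1, Dnajb1, Dnaja1, Hspb1, Hspe1 and Hspd1, and each had 1 row in the table. RNA came from the spleen of ICR mice, an outbred stock, aged 8 weeks. The 4 groups of 3 libraries were untreated control, busulfan alone, L.J. alone at 10 mg/kg, and busulfan together with L.J. at 10 mg/kg. Busulfan is an alkylating drug that kills dividing blood-forming cells, and the labels give neither its dose nor the time of sampling. L.J. is not spelled out in the labels, and the series' design text names spleen damage by busulfan and an abbreviated treatment, FMT, as its subject. Levels are FPKM, fragment counts scaled by transcript length and by library size. Each value is thus relative to its own library, and comparisons between libraries depend on what else each library holds. Whether the libraries within a group stem from different mice is not stated, so the p-values measure the spread between libraries, which may be technical.

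When proteins unfold, the transcription factor HSF1 is released from chaperones, forms trimers and binds heat shock elements, which are inverted repeats of the unit GAA. Its targets encode chaperones that hold, refold or hand over damaged proteins. HSP70 proteins (Hspa1a and Hspa1b) do the refolding, J proteins (Dnajb1 and Dnaja1) bring them their clients, and HSP110 (Hsph1) and BAG3 (Bag3) exchange their nucleotide. HSP90 (Hsp90aa1) matures kinases and steroid receptors, and HSP27 (Hspb1) is a small heat shock protein that holds unfolded proteins. Hspd1 and Hspe1 encode HSP60 and HSP10, the chaperonin of the mitochondrial matrix. They are counted among the heat shock genes for their HSF1-driven promoter, although their proteins do not act in the cytosol, and RNA levels say nothing of where a protein acts. In lymphoid tissue the inducible members also respond to fever, to activation of lymphocytes and to handling of cells.

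The start regions of 4 members are shown because they carry the letters that HSF1 recognises in differing number, and because one pair is nearly identical. Each runs from 250 bases before to 50 bases after a start in RefSeq's annotation of GRCm38.p6, on the gene's own strand, 5′ to 3′. Hsph1 has 2 such windows, and the first is shown. Capitals mark matches, on either strand, to GAANNTTCNNGAA, GAANNTTC or TTCNNGAA; the short motifs can lie inside the long one. Hsph1 lies at chr5:149636287-149636586 on the minus strand, Hspa1a at chr17:34972107-34972406 on the minus strand, Hspa1b at chr17:34959189-34959488 on the minus strand and Hspe1 at chr1:55087898-55088197 on the plus strand.
Hsph1: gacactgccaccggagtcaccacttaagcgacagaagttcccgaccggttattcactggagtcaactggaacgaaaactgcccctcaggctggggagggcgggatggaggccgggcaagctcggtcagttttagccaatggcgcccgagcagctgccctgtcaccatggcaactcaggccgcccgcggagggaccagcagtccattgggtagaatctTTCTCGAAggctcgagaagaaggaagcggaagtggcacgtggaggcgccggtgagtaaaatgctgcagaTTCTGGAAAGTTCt
Hspa1a: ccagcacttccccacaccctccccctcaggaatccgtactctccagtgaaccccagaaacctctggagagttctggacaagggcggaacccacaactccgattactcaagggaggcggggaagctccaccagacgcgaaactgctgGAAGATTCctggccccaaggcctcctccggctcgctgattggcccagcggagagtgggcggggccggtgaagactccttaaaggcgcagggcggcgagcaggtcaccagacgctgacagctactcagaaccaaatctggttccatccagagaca
Hspa1b: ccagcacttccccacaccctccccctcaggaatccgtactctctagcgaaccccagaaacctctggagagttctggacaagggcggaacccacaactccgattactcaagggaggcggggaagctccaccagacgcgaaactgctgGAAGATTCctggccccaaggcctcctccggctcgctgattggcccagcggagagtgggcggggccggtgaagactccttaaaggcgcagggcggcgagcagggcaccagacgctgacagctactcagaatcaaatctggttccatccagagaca
Hspe1: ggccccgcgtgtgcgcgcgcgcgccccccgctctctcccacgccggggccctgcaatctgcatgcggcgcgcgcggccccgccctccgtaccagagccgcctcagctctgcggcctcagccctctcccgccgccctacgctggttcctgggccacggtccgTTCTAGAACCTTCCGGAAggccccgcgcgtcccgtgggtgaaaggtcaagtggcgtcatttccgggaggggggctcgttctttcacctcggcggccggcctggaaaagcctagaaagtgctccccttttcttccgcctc

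Windows of this kind were matched by gene ID to 9 of the 10 members, all but Hsp90aa1. The unit repeated 3 times, GAANNTTCNNGAA on either strand, was found at 3 of these 9 (Hsph1, Hspe1 and Hspd1), against 0.662% of the 27025 genes with a window. The shorter GAANNTTC was found at 8 of 9, all but Dnajb1, against 9.04% of genes, and TTCNNGAA at 3 of 9 against 9.6%. In Hsph1 the long match, TTCTGGAAAGTTC, began 36 bases after the start used for the window shown. It began 15 bases after the start used for its second window. Both of these starts lie inside the annotated gene, whose 5′ end is at chr5:149636498. In Hspe1 the overlapping matches TTCTAGAACCTTC and GAACCTTCCGGAA began 89 and 84 bases before the start. The Hspe1 window shares 285 bases with the second window of Hspd1, since these genes are read in opposite directions from one region, so their matches are the same bases. A match describes letters in a window and is not a measurement of HSF1 binding.

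The members span a wide range of levels. Hsp90aa1 was the most abundant, at 274.46 to 440.34 FPKM over the 12 libraries, and Hspa1a the least, at 0.48 to 6.62 FPKM. In 9 of 10 members the L.J. group had the highest mean, and Hspb1 was highest in the busulfan plus L.J. group. No member passed the test in any comparison (limma, adjusted p under 0.05 over 13138 genes), and the number at an unadjusted p under 0.05 is given for each. Library totals ran from 511876 to 580364 FPKM, and the number of reads behind them is unknown. In bulk spleen a lower level can come from fewer cells of a type or from less RNA per cell, which cannot be told apart here.

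**Figure D1:**
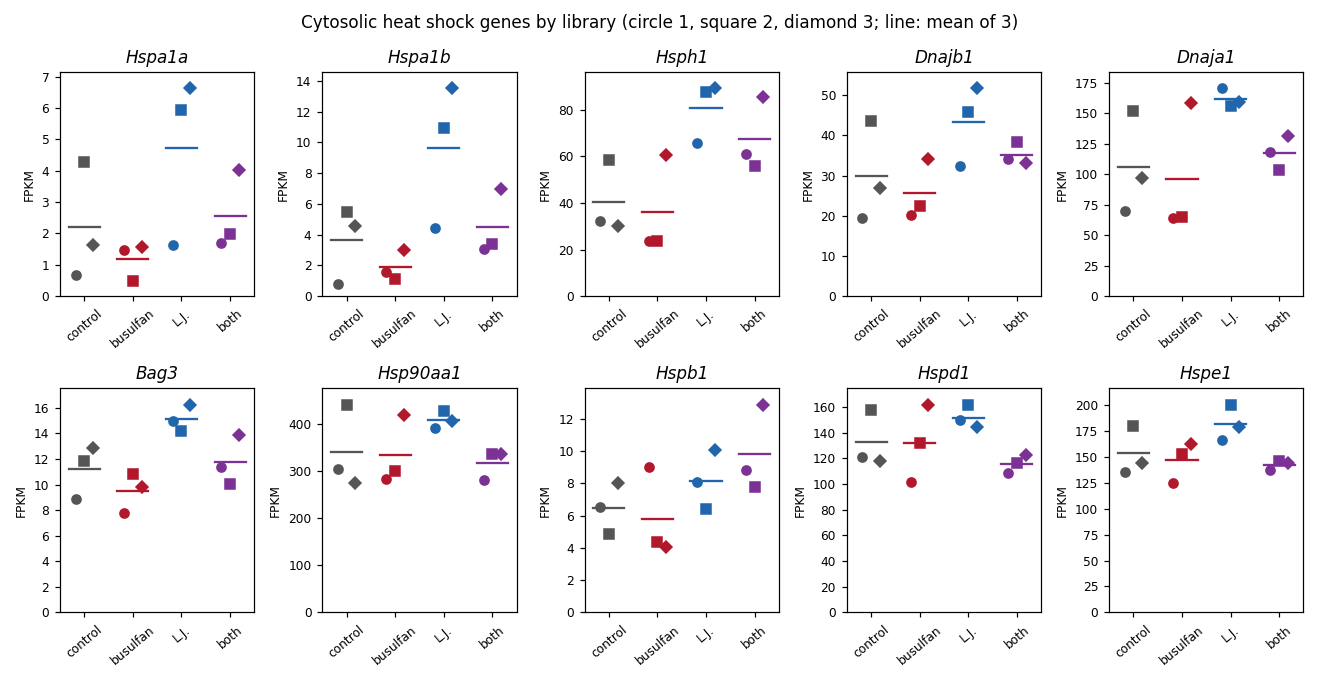
FPKM of the 10 genes in each of the 12 libraries, by group (both, busulfan plus L.J.), with circles, squares and diamonds for libraries 1, 2 and 3 and a line at the mean of 3. Control library 2 and busulfan library 3 stand above the other libraries of their groups for Hsph1 and Dnaja1, and the L.J. libraries of Dnaja1 lie close together at 155.79 to 170.38 FPKM.

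The HSP110 gene Hsph1 (chr5:149616843-149636498, GRCm38.p6) held 32.11, 58.49 and 30.26 FPKM in the controls and 23.58, 23.6 and 60.59 FPKM after busulfan. It held 65.67, 87.43 and 89.02 FPKM with L.J. and 60.8, 55.77 and 85.41 FPKM with busulfan plus L.J. Every L.J. library lay above every control and every busulfan library, while control and busulfan libraries overlapped and the busulfan plus L.J. group overlapped all of the others. Means were 40.3 ± 15.8 in controls, 35.9 ± 21.4 after busulfan, 80.7 ± 13.1 with L.J. and 67.3 ± 15.9 FPKM with busulfan plus L.J. (SD, n = 3 each). On the log2(FPKM + 1) scale, L.J. exceeded control by 1.04 (SE 0.35, 95% interval 0.26 to 1.81; limma adjusted p = 0.5482), and the busulfan plus L.J. group exceeded busulfan by 1.01 (SE 0.35, interval 0.23 to 1.79; limma adjusted p = 0.1308).

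The size of the second Hsph1 difference rested on which busulfan libraries were used. It was 1.45 without busulfan library 3 (limma adjusted p = 0.01167). It was 0.13 without busulfan libraries 1 and 2 and L.J. library 3, which hold the most pancreatic RNA (limma adjusted p = 0.8825). In that fit the busulfan arm is library 3 alone, the one at 60.59 FPKM, and is assumed to vary like the other groups. Against control, the L.J. difference of Hsph1 stayed between 0.87 and 1.42 over 24 alternative settings, with adjusted p from 0.0753 to 0.9979.

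Hspa1a and Hspa1b, the stress-inducible HSP70 genes, lie side by side on chromosome 17 at chr17:34969359-34972156 and chr17:34956429-34959238. Their start windows are identical at 296 of 300 positions and their longest open reading frames at 1890 positions (98%), so reads could be shared or split between them and each value is uncertain. Hspa1a measured 0.69, 4.27 and 1.64 FPKM in controls, 1.46, 0.48 and 1.57 after busulfan, 1.62, 5.92 and 6.62 with L.J., and 1.7, 1.98 and 4.03 with busulfan plus L.J. For Hspa1b the values were 0.81, 5.47 and 4.59 FPKM in controls, 1.55, 1.1 and 2.98 after busulfan, 4.46, 10.96 and 13.51 with L.J., and 3.09, 3.4 and 6.95 with busulfan plus L.J. In Hspa1b every L.J. library lay above every busulfan library, and the L.J. libraries overlapped the controls because L.J. library 1 was below control libraries 2 and 3.

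Group means of Hspa1b were 3.62 ± 2.48 in controls, 1.88 ± 0.98 after busulfan, 9.64 ± 4.67 with L.J. and 4.48 ± 2.15 FPKM with busulfan plus L.J. (SD, n = 3 each). Spread within a group was widest for this pair. The highest control was 6.75 times the lowest for Hspa1b and 6.19 times for Hspa1a. Hspa1b was 1.29 higher with L.J. than in control (SE 0.51, interval 0.17 to 2.40, log2 scale; limma adjusted p = 0.5482), and 0.71 higher without control library 1. Hspa1a was 0.85 higher (SE 0.48, interval -0.20 to 1.90; limma adjusted p = 0.5577), with 0.47 without control library 1, 1.29 without control library 2 and 1.34 without L.J. library 1. Adding 1 to FPKM understates differences at such low levels.

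Dnajb1, which encodes HSP40, a J protein that starts the HSP70 cycle, lies at chr8:83608175-83612653. It was at 19.4, 43.66 and 26.86 FPKM in controls, 20.12, 22.46 and 34.04 after busulfan, 32.28, 45.91 and 51.64 with L.J., and 34.04, 38.32 and 32.99 with busulfan plus L.J. All 3 L.J. libraries exceeded control libraries 1 and 3, and control library 2 lay within the L.J. range. The L.J. difference from control was 0.57 (SE 0.28, interval -0.04 to 1.17, log2 scale; limma adjusted p = 0.5543). It was 0.30 without control library 1 and 0.87 without control library 2.

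Dnaja1, a farnesylated J protein that works with HSP70 and HSP90, lies at chr4:40722468-40734965. Its levels were 70.07, 151.66 and 97.26 FPKM in controls, 63.77, 65.35 and 158.4 after busulfan, 170.38, 155.79 and 159.63 with L.J., and 117.94, 103.76 and 131.32 with busulfan plus L.J. The L.J. libraries lay above all controls and above all busulfan plus L.J. libraries, and busulfan library 3 stood within the L.J. range. Means were 106.3 ± 41.5 in controls, 95.8 ± 54.2 after busulfan, 161.9 ± 7.56 with L.J. and 117.7 ± 13.8 FPKM with busulfan plus L.J. (SD, n = 3 each). The L.J. group varied by a factor of 1.09 from lowest to highest and the busulfan group by 2.48. The L.J. difference from control was 0.67 (SE 0.34, interval -0.06 to 1.41, log2 scale; limma adjusted p = 0.5543), and 0.41 without control library 1. The busulfan plus L.J. minus busulfan difference was 0.42, and ran from 0.20 to 0.85 without 1 library (without busulfan libraries 1 and 3 respectively). It was -0.43 without the 3 libraries of highest pancreatic RNA, where the busulfan arm is library 3 alone, at 158.4 FPKM. The level is uncertain to the extent that 374 bases of Dnaja1 are also annotated to Gm6297, a long non-coding RNA, since the labels do not say whether reads were counted by strand.

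Bag3, a co-chaperone that releases clients from HSP70 and steers them to autophagy, lies at chr7:128523583-128546981. It held 8.89, 11.86 and 12.89 FPKM in controls, 7.79, 10.85 and 9.83 after busulfan, 14.98, 14.22 and 16.25 with L.J., and 11.34, 10.04 and 13.88 with busulfan plus L.J. The L.J. libraries lay above all 9 libraries of the other groups, with means of 15.2 ± 1.03 against 11.2 ± 2.08 in controls, 9.49 ± 1.56 after busulfan and 11.8 ± 1.95 FPKM with busulfan plus L.J. (SD, n = 3 each). Bag3 was 0.42 higher with L.J. than in control (SE 0.16, interval 0.07 to 0.76, log2 scale; limma adjusted p = 0.5482), and 0.27 higher without control library 1. Its busulfan plus L.J. minus L.J. difference was -0.35 (SE 0.16, interval -0.70 to -0.001; limma adjusted p = 0.8858).

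Hsp90aa1, the stress-inducible cytosolic HSP90, lies at chr12:110691036-110696395. Levels were 304.4, 440.34 and 274.46 FPKM in controls, 282.83, 299.53 and 419.46 after busulfan, 391.76, 427.28 and 406.43 with L.J., and 281.13, 335.19 and 334.86 with busulfan plus L.J. Control library 2 was the highest of all 12 libraries and busulfan library 3 lay within the L.J. range, so the L.J. group was apart only from busulfan plus L.J. The L.J. minus control difference was 0.30 (SE 0.19, interval -0.13 to 0.72, log2 scale; limma adjusted p = 0.5856). It was 0.16 without control library 3 and 0.50 without control library 2.

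Hspb1, which encodes HSP27, lies at chr5:135887919-135889563 and did not follow the other members. It was at 6.54, 4.86 and 8.02 FPKM in controls, 8.99, 4.37 and 4.05 after busulfan, 8.06, 6.41 and 10.05 with L.J., and 8.83, 7.77 and 12.88 with busulfan plus L.J. Control library 2, high for most members, was the lowest control, and busulfan library 3 was the lowest of all 12. Busulfan plus L.J. minus busulfan was 0.71 (SE 0.28, interval 0.11 to 1.32, log2 scale; limma adjusted p = 0.1622). It was 1.03 without busulfan library 1 (limma adjusted p = 0.03978), the 1 busulfan library that overlapped the busulfan plus L.J. range for Hspb1, and its adjusted p ran from 0.02876 to 0.3801 over 24 alternative settings.

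The chaperonin genes Hspd1 and Hspe1 lie head to head at chr1:55077833-55088243 and chr1:55088148-55091317 and share 96 annotated bases. Hspe1 was at 135.72, 179.67 and 144.05 FPKM in controls, 124.72, 152.43 and 162.03 after busulfan, 166.52, 200.06 and 178.81 with L.J., and 137.09, 145.87 and 143.72 with busulfan plus L.J. Hspd1 was at 121.21, 157.91 and 118.04 FPKM in controls, 101.81, 131.49 and 161.63 after busulfan, 149.7, 161.45 and 143.92 with L.J., and 108.43, 116.57 and 122.57 with busulfan plus L.J. For both genes every busulfan plus L.J. library lay below every L.J. library. The busulfan plus L.J. minus L.J. difference was -0.35 for Hspe1 (SE 0.14, interval -0.65 to -0.04, log2 scale; limma adjusted p = 0.8675). For Hspd1 it was -0.39 (SE 0.17, interval -0.75 to -0.02; limma adjusted p = 0.8726).

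Set over the whole group, the members lay on one side of 0 in some comparisons, and none was called. For busulfan minus control, where 0.0304% of tested genes were called, 0 of 10 members were called by limma and 0 had an unadjusted p under 0.05, which 12.2% of all genes had. All 10 members were below control, with a median of -0.20 on the log2 scale. The median was -0.03 for all tested genes, of which 44.6% were higher. The split of the members did not hold up across libraries, since without control library 2 only 4 of 10 were below. For L.J. minus control, where again 0.0304% of genes were called, 0 of 10 members were called and 3 had an unadjusted p under 0.05 (Hsph1, Bag3 and Hspa1b), as did 8.91% of all genes. All 10 were above control, with a median of 0.49 against 0.02 for all tested genes, of which 54% were higher. The count of 10 held without each library in turn and was 9 with the pancreatic score as a covariate.

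With both treatments the picture was mixed. For busulfan plus L.J. minus control, 0.0609% of genes were called, 0 of 10 members were called and 0 had an unadjusted p under 0.05, which 19.0% of all genes had. In it 7 members were higher with a median of 0.24, against 56.1% of all genes higher with a median of 0.04, and without control library 1 only 3 members were higher. For busulfan plus L.J. minus busulfan, 1.66% of genes were called, 0 of 10 members were called, and 2 had an unadjusted p under 0.05 (Hsph1 and Hspb1), a share close to the 23.2% of all genes. In that comparison 7 members were higher with a median of 0.45, against 56.9% of all genes higher with a median of 0.05. These comparisons share the control, busulfan and combined libraries with one another, so their values are given side by side and not as separate evidence.

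For busulfan plus L.J. minus L.J., limma called 0% of genes and 0 members, although 737 genes (5.61%) and 3 members had an unadjusted p under 0.05. The 3 members were Bag3, Hspe1 and Hspd1. All members but Hspb1 were lower, with a median of -0.36 against 0.005 for all tested genes, of which 51.2% were higher. The interaction, which asks whether the L.J. difference depends on busulfan, also called 0% of genes by limma. In it 0 members had an unadjusted p under 0.05, which 1506 genes (11.5%) had. Its 95% intervals were wide, from -1.13 to 1.07 for Hsph1, so a dependence of that size was not detectable here.

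Across all 4 groups at once, limma's F test called 0.0837% of genes and 0 of the members, and 3 members had an unadjusted p under 0.05 (Hsph1, Bag3 and Hspa1b), as did 16.7% of all genes. The L.J. difference averaged over both busulfan states was added after the data had been seen. It called 0.0228% of genes by limma and 0 members, and 7 members and 22.2% of all genes had an unadjusted p under 0.05. All 10 members were positive with a median of 0.51, against 57.1% of all genes positive with a median of 0.035. The difference was 1.10 for Hspa1b (SE 0.36; limma adjusted p = 0.1362), 1.02 for Hsph1 (SE 0.25, interval 0.47 to 1.57; limma adjusted p = 0.1042) and 0.02 for Hspd1 (SE 0.12; limma adjusted p = 0.9196). Without the 3 libraries of highest pancreatic RNA 8 of 10 were positive, with Hspd1 at -0.12 and Hsp90aa1 at -0.055. Weighting libraries by their quality in limma called 7 members in this averaged comparison (Hsph1, Bag3, Hspa1a, Hspa1b, Dnajb1, Dnaja1 and Hspb1), along with 2714 genes overall in place of 3. Its busulfan counterpart, also added afterwards, called 0.00761% of genes and 0 members by limma. In it 1 member (Bag3) had an unadjusted p under 0.05, as did 5.06% of all genes.

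**Figure D2:**
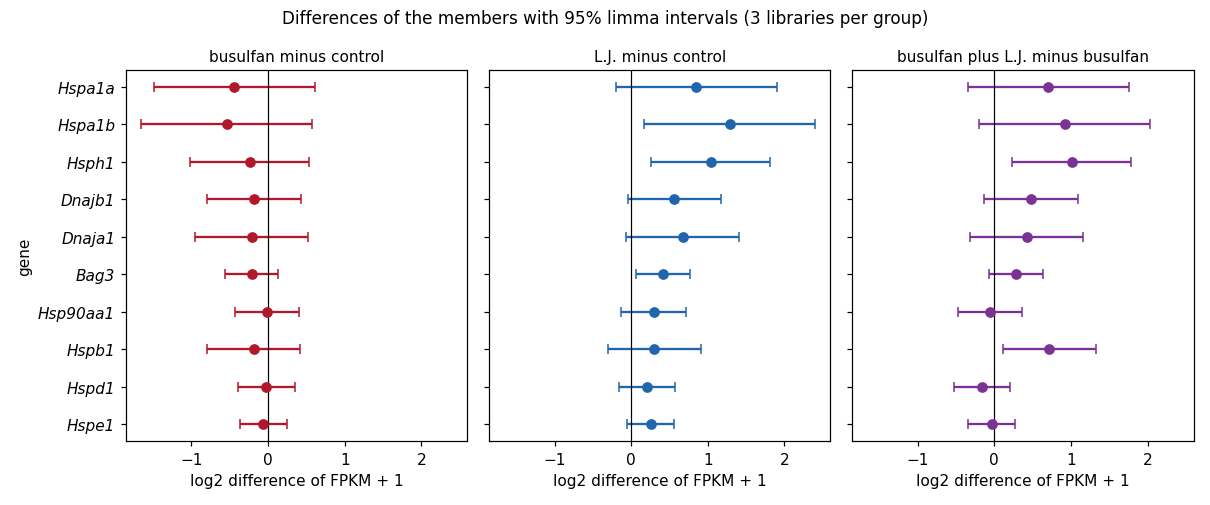
Differences of the 10 genes in log2(FPKM + 1) for busulfan minus control, L.J. minus control and busulfan plus L.J. minus busulfan, with points for the estimate and bars for the 95% limma interval (3 libraries per group). In the L.J. panel all 10 points lie right of 0, and the intervals of Hsph1, Hspa1b and Bag3 leave out 0 before adjustment over all genes.

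The members varied more between libraries of one group than most genes did. The median SD around the group means was 0.39 on the log2(FPKM + 1) scale for the members and 0.19 for all tested genes. It was 0.72 for Hspa1b, 0.68 for Hspa1a, 0.50 for Hsph1 and 0.47 for Dnaja1, but 0.16 for Hspe1. Much of that spread was shared: in most members control library 2 stood above control libraries 1 and 3, and busulfan library 3 above busulfan libraries 1 and 2.

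A mean of the 10 members, each scaled to mean 0 and SD 1 over the 12 libraries, puts this in one number. It was -1.02, 0.60 and -0.39 in controls, -1.15, -0.96 and 0.11 after busulfan, 0.50, 1.09 and 1.19 with L.J., and -0.27, -0.16 and 0.46 with busulfan plus L.J. Control library 2 was thus within the L.J. range, and busulfan library 3 lay within the range of the controls and of the combined group. Each member was also set against the mean of the other 9 over the 12 libraries, as a description. Pearson r was 0.92 for Hspa1b, 0.90 for Dnajb1, 0.90 for Dnaja1, 0.89 for Hsph1 and 0.86 for Hspa1a. It was 0.80 for Hspe1, 0.78 for Bag3, 0.76 for Hsp90aa1, 0.63 for Hspd1 and 0.05 for Hspb1, so HSP27 did not follow the others.

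Outside the members, the genes whose log2(FPKM + 1) most resembled this mean over 12 libraries were taken by the highest Pearson r among 13128 tested genes. They were Ccdc117 (r = 0.96), Hspa8 (0.93), Ahsa2 (0.92), Alkbh5 (0.89), Slc5a3 (0.89), Ubfd1 (0.88), Stip1 (0.88) and Fkbp4 (0.87), and 6 of these 8 were also among the top 8 by Spearman rho. Hspa8 is the constitutive HSP70, Stip1 the adaptor that links HSP70 to HSP90, Fkbp4 an HSP90-bound immunophilin, and Ahsa2 a relative of an HSP90 ATPase activator. Ccdc117 was at 10.34, 17.78 and 13.07 FPKM in controls, 11.35, 9.82 and 16.01 after busulfan, 19.62, 20.38 and 23.77 with L.J., and 16.46, 15.48 and 16.92 with busulfan plus L.J. Control library 2 and busulfan library 3 were again the highest of their groups, and every L.J. library lay above the other 9. All points of such a correlation share the normalisation of the 12 libraries, and 8 genes picked as the top of 13128 are extreme by choice.

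**Figure D3:**
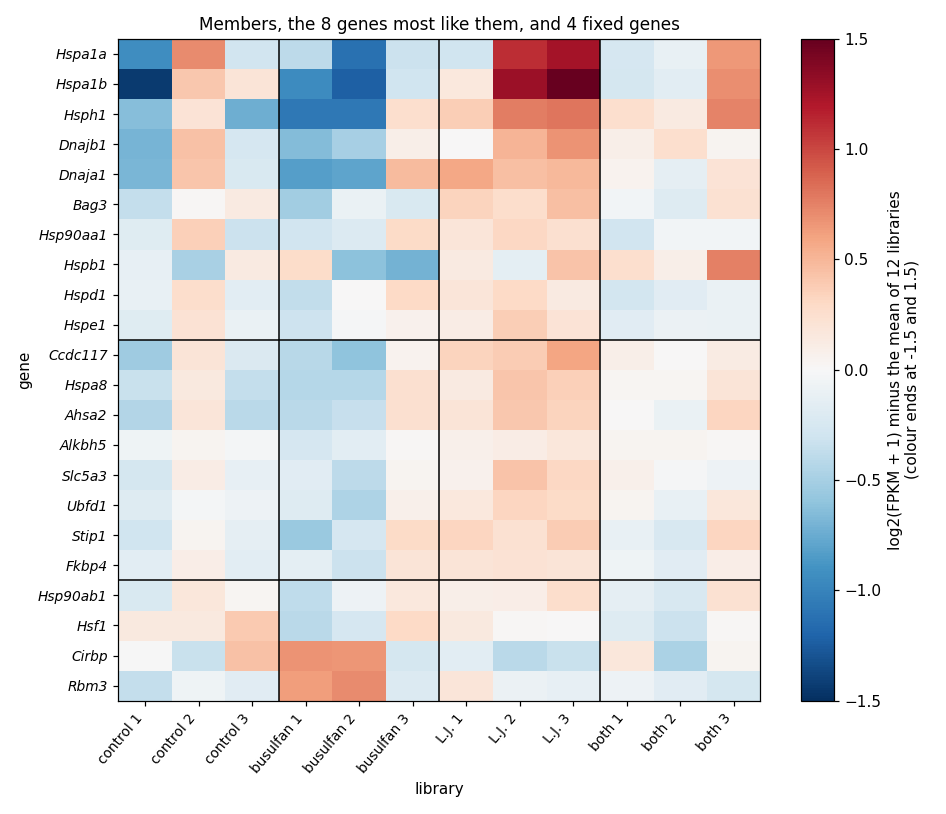
Heat map of log2(FPKM + 1) minus each gene's mean over 12 libraries, for the 10 members, the 8 genes most like them, and Hsp90ab1, Hsf1, Cirbp and Rbm3, with libraries in columns by group (both, busulfan plus L.J.); colour ends at -1.5 and 1.5. Control library 1 and busulfan libraries 1 and 2 are blue for most members, control library 2 and the L.J. libraries are red, and Hspb1 departs from the other rows.

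Hspa8 was more abundant than any member, at 943.84, 1317.13 and 929.12 FPKM in controls, 885.57, 881.87 and 1408.56 after busulfan, 1305.56, 1594.1 and 1519.7 with L.J., and 1219.88, 1213.32 and 1364.73 with busulfan plus L.J. It was 0.48 higher with L.J. than in control (SE 0.20, log2 scale; limma adjusted p = 0.5482), and the L.J. range overlapped that of the controls through control library 2. Hsp90ab1, the constitutive HSP90, followed the members with r = 0.83, and its L.J. difference was 0.16 (SE 0.17; limma adjusted p = 0.7321). Hsf1 itself was at 39.75, 39.69 and 47.27 FPKM in controls, 26.82, 29.88 and 44.16 after busulfan, 39.81, 36.18 and 35.89 with L.J., and 31.16, 28.39 and 36.35 with busulfan plus L.J. Its r with the members was 0.34, and its busulfan minus control difference was -0.35 (SE 0.17; limma adjusted p = 0.4342). HSF1 is switched on after translation, so the level of its RNA is not a reading of its activity.

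Other lists of the protein-folding network differed in how far they followed the members, given here as shares of genes with r of at least 0.5, against 5.79% of 13128 tested genes. The share was 9 of 18 for HSP90 and its co-chaperones, 3 of 8 for other HSP70 and HSP110 genes, 3 of 10 for other genes induced through HSF1, and 4 of 14 for the cytosolic chaperonin and prefoldin. It was 3 of 18 for other J proteins and nucleotide exchange factors, 2 of 12 for other mitochondrial chaperones and proteases, 1 of 7 for other small heat shock proteins, 0 of 4 for heat shock factors and 0 of 14 for endoplasmic reticulum chaperones. None of these genes passed the limma test for L.J. minus control. The median L.J. minus control difference was 0.18 for the HSP90 list (14 of 18 higher), 0.23 for the chaperonin list (11 of 14 higher) and 0.19 for the HSF1-induced list (8 of 10 higher), each below the 0.49 of the members. It was 0.07 for the other HSP70 genes (6 of 8 higher), 0.13 for the mitochondrial list (9 of 12 higher), -0.05 for the J protein list (6 of 18 higher), and -0.08 for both the small heat shock proteins (1 of 7 higher) and the heat shock factors (1 of 4 higher). The endoplasmic reticulum chaperones had the highest median of these other lists, 0.36 (12 of 14 higher).

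The chaperones of the endoplasmic reticulum serve secreted proteins and answer to a separate stress pathway. For busulfan plus L.J. minus busulfan theirs was the only protein-folding list in which genes passed the test. In it 3 of 14 fell, where 1.66% of all tested genes were called. Manf, a secreted stress-induced factor, fell by 1.02 (SE 0.14; limma adjusted p = 0.01643). Creld2 fell by 1.15 (SE 0.25; limma adjusted p = 0.04842), and Calr, the lectin chaperone calreticulin, fell by 0.66 (SE 0.13; limma adjusted p = 0.03961). Manf was at 127.28, 102.96 and 100.62 FPKM after busulfan and at 50.79, 50.27 and 60.87 with busulfan plus L.J., with no overlap. All 14 of the list were lower in that comparison, with a median of -0.46, and all 14 were higher in busulfan minus control, with a median of 0.50 and none called. The 7 plasma cell markers, cells rich in these chaperones, lay the same way: 7 of 7 were higher in busulfan minus control (median 1.14) and 7 of 7 lower in busulfan plus L.J. minus busulfan (median -0.79), none called. Their summed FPKM was 302.2 to 540.8 in controls, 784.2 to 1294 after busulfan, 619.2 to 1571 with L.J. and 489.5 to 602.0 with busulfan plus L.J. Pancreatic acinar and neutrophil markers lay this way too, with larger medians. All 16 acinar genes were higher in the first comparison (median 6.16) and lower in the second (median -5.30), none called. All 12 neutrophil genes did the same (medians 3.54 and -3.26), with 2 called in the second. The part of these cell types in the chaperone levels was not tested. Only the compared groups in the fit, or the pancreatic score as a covariate, left 0 genes called among all tested, Manf, Creld2 and Calr included.

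Cirbp and Rbm3 encode RNA-binding proteins that accumulate when cells are cooled and decline when they are warmed. Cirbp was at 36.07, 28.51 and 49.6 FPKM in controls, 58.49, 58.09 and 30.05 after busulfan, 32.48, 27.1 and 28.72 with L.J., and 41.05, 25.79 and 37.3 with busulfan plus L.J. Control library 2 and busulfan library 3, high for the members, were the lowest of their groups for Cirbp. Over 12 libraries Cirbp had r = -0.75 and Spearman rho = -0.73 with the members' mean, as a description, and r = -0.65 without the 2 libraries farthest from the median, L.J. 3 and busulfan 1. Its r of -0.61 on deviations from the group means gives the same sign within groups. It ranked 30 from the bottom of 13128 genes.

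Rbm3 was at 218.03, 268.33 and 247.94 FPKM in controls, 431.69, 459.85 and 243.21 after busulfan, 318.45, 263.8 and 257.51 with L.J., and 265.5, 249.27 and 232.5 with busulfan plus L.J. Busulfan libraries 1 and 2 stood above the other 10, and busulfan library 3 lay among the controls. Its r with the members was -0.42 and its rho -0.04. Rbm3 was 0.58 higher after busulfan than in control (SE 0.21; limma adjusted p = 0.3236), and Cirbp was 0.33 higher (SE 0.27; limma adjusted p = 0.6253).

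**Figure D4:**
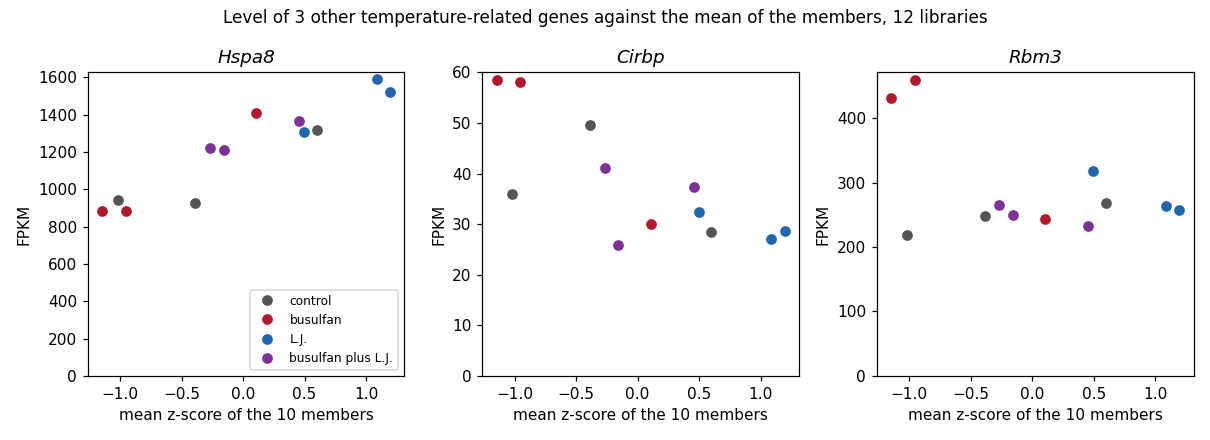
FPKM of Hspa8, Cirbp and Rbm3 against the mean z-score of the 10 members, 1 point per library, coloured by group. Hspa8 goes up with the members (r = 0.93), Cirbp goes down (r = -0.75), and Rbm3 is set apart mainly by busulfan libraries 1 and 2, at 431.69 and 459.85 FPKM.

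Clock output genes, which follow the time of day, were looked at because the labels give no hour of sampling. Of 14 tested, 7 had an r of at most -0.5 with the members' mean, namely Per3 (-0.74), Cry2 (-0.71), Tef (-0.69), Per2 (-0.68), Hlf (-0.63), Dbp (-0.61) and Bhlhe41 (-0.54). Over all tested genes 832 of 13128 did so. The other tested clock genes were Cry1 (-0.23), Nr1d2 (-0.18), Per1 (-0.09), Nr1d1 (-0.07), Ciart (0.10), Clock (0.18) and Arntl (0.44). Dbp, a direct clock target, was at 5.19, 4.12 and 6.83 FPKM in controls and 8.4, 7.06 and 4.96 after busulfan. It was at 5.31, 4.36 and 5.01 with L.J. and 6.42, 4.41 and 6.9 with busulfan plus L.J. Control library 2 and busulfan library 3 were again the lowest of their groups. L.J. library 1, the lowest of its group for the members' mean, was the highest for Dbp. Busulfan plus L.J. library 3 went the other way, as the highest of its group for both. In busulfan plus L.J. minus busulfan, Arntl, which encodes the clock activator BMAL1, rose by 0.68 (SE 0.14; limma adjusted p = 0.043), a call that was also lost in the fits that left 0 genes. The part of sampling hour in the members' levels was not tested. Of 15 immediate early genes, which respond within minutes to handling, 2 had an r of at least 0.5 and 1 an r of at most -0.5.

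Markers of other tissues differed between libraries and are given for that reason. The summed FPKM of 16 pancreatic acinar genes was 2.33 to 3.56 in controls, 196 to 53880 after busulfan, 81.55 to 5979 with L.J., and 3.5 to 183.4 with busulfan plus L.J.; Amy2a5 was listed at 0 in 2 controls. Its mean log2 level had r = -0.10 with the members' mean, and the order of the libraries was mixed. Busulfan library 1, at an acinar sum of 53880, was the lowest of 12 for the members, control library 1, at 2.33, the next lowest, busulfan library 2, at 4653, the next, and L.J. library 3, at 5979, the highest. Summed neutrophil genes were 567.5 to 915.2 in controls, 1405 to 30650 after busulfan, 932.6 to 1778 with L.J. and 412.1 to 1134 with busulfan plus L.J. Their r was -0.53 over all libraries and -0.66 on deviations from the group means. Busulfan libraries 1 and 2, low for the members, held 30650 and 12770, and busulfan library 3 held 1405. Summed kidney tubule genes were 23.29 to 49.36 in controls and 0.85 to 8.84 in the other groups, with r = -0.34 over all libraries and -0.72 on deviations from the group means. Summed hepatocyte genes were 28.32, 104.6 and 46.27 in controls and 7.33 to 19.43 in the other groups, highest in control library 2, with r = 0.12 over all libraries and 0.50 on deviations. Spleen was evident in all 12 libraries: the red pulp macrophage factor Spic was at 33.65 to 65.22 FPKM. For the other marker lists r is given over all libraries and then on deviations. It was 0.44 and 0.41 for erythroid, 0.30 and 0.21 for B cell, and 0.27 and 0.49 for T cell markers. It was -0.16 and -0.37 for plasma cell, -0.08 and -0.33 for red pulp macrophage, and -0.01 and -0.36 for smooth muscle markers. Sinusoidal endothelium had 0.135 and -0.52. Apart from the acinar alternatives given, the part of these cell types in the members' levels was not tested.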

How the data were processed

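The authors deposited 1 table of FPKM values per gene for all 12 libraries, written to 2 decimals, with no counts. Bowtie 0.12.2 and mm10 are listed in the submitters' processing notes, with no role given; the counting tool is not given in the sources used here. Total RNA was taken from frozen spleen by Trizol and a column kit, per the labels' protocols. FPKM was taken to log2 after adding 1, genes whose average reached 1 FPKM in any group entered the fit (13138 of 21004, all 10 members), and 1 mean per group was fitted over all 12 libraries with limma-trend and robust empirical Bayes (limma 3.58.1, R 4.3.3), adjusted by Benjamini-Hochberg over all tested genes. The fit was tested on simulated data. Symbols turned into dates were restored for 26 genes, and 99.2% of gene IDs were found in RefSeq's annotation of GRCm38.p6.

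The members and the gene lists were chosen with earlier results of these data known. All members were named; of the other pathway lists, genes called in any contrast, plus Hsf1, Hspa8, Hsp90ab1, Cirbp and Rbm3; and the 8 genes most like the members. Uncalled clock genes and single tissue markers were named after their values were seen, and called genes of the marker lists were not named. Same-numbered libraries were checked for pairing (18 pairs, r from -0.31 to 0.33 on deviations from group means, 8 above 0.1), so the numbers were not used as pairs. Within-group r was 0.962 to 0.993 and no duplicate libraries were seen.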

Additional observations from a re-analysis of the deposited data

Results flagged for a closer look

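The L.J. difference took opposite signs with and without busulfan in Hspd1 (0.21 without and -0.16 with), Hsp90aa1 (0.30 and -0.06) and Hspe1 (0.25 and -0.03). In Hspd1 all 3 L.J. libraries lay above the control mean and all 3 busulfan plus L.J. libraries below the busulfan mean. The single libraries were not apart. Control library 2, at 157.91 FPKM, lay within the L.J. range, and busulfan library 1, at 101.81 FPKM, lay below every busulfan plus L.J. library. Without 1 library the difference with busulfan ran from -0.33 to 0.00. The limma test of the Hspd1 interaction gave -0.37 on the log2 scale (SE 0.24, adjusted p = 0.5749), so the difference did not pass. Groups of 3 libraries are too small for a test of single outlying libraries.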

How the results depend on the processing

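No alternative called a member in busulfan minus control, L.J. minus control, busulfan plus L.J. minus L.J., the interaction or the averaged busulfan difference, and the replicate block, added although the numbers do not pair the libraries, called 0 members in every comparison. Library weights called 1 member in busulfan plus L.J. minus control, 2 in busulfan plus L.J. minus busulfan, 7 in the averaged L.J. difference and 1 in the F test. Without 1 library these counts ran from 0 to 1 for busulfan plus L.J. minus busulfan (1 without busulfan library 1, Hspb1; 1 without busulfan library 3, Hsph1), 0 to 2 for the averaged L.J. difference and 0 to 1 for the F test. All-gene counts were unstable: busulfan plus L.J. minus busulfan called 218 genes, and 1989 with library weights, 18 with no filter, 55 with the replicate block, 0 with the acinar covariate, 0 without the 3 libraries of high acinar score, 0 in the compared groups alone, and 2 to 1378 without 1 library. Library weights gave 107 genes for busulfan minus control (4), 14 for L.J. minus control (4), 1483 for busulfan plus L.J. minus control (8), 2714 for the averaged L.J. difference (3), 1619 for the F test (11) and 220 for the interaction (0). Without 1 library the counts ran from 0 to 829 for busulfan minus control (829 without busulfan library 3), 0 to 8 for L.J. minus control, 3 to 23 for busulfan plus L.J. minus control, 0 to 511 for the interaction and 3 to 549 for the F test (511 and 549 without busulfan library 3), 2 to 1446 for the averaged L.J. difference (1446 without busulfan library 1) and 0 to 110 for the averaged busulfan difference (110 without busulfan library 3). The causes were not tested.

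The signs of single members were followed in busulfan minus control, L.J. minus control and busulfan plus L.J. minus busulfan, and reversed as follows, in log2 units. For busulfan minus control the acinar covariate gave Hsph1 0.28, Hsp90aa1 0.27, Dnajb1 0.16, Dnaja1 0.36, Hspe1 0.18 and Hspd1 0.34; leaving out the 3 libraries of high acinar score, which leaves busulfan library 3 as the lone busulfan library, assumed to vary like the other groups, gave Hsph1 0.64, Hsp90aa1 0.33, Dnajb1 0.25, Dnaja1 0.64, Hspe1 0.091 and Hspd1 0.30; library weights gave Bag3 0.031, Hspe1 0.051 and Hspd1 0.055; median of ratios scaling gave Hsp90aa1 0.007 and Hspd1 0.003. Without 1 library, busulfan minus control ran from -0.68 to 0.054 for Hsph1, -0.19 to 0.19 for Hsp90aa1, -0.45 to 0.12 for Dnajb1, -0.64 to 0.077 for Dnaja1, -0.14 to 0.057 for Hspe1 and -0.18 to 0.15 for Hspd1. For L.J. minus control, only Hspb1 with the acinar covariate turned, to -0.31. For busulfan plus L.J. minus busulfan, Dnaja1 became -0.052 with the acinar covariate and -0.43 without the 3 libraries; quantile normalization gave Hsp90aa1 0.154 and Hspe1 0.097; without 1 library the range was -0.17 to 0.12 for Hsp90aa1, -0.14 to 0.044 for Hspe1 and -0.33 to 0.00 for Hspd1.

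In the other comparisons the number of members higher also moved: in busulfan plus L.J. minus control from 7 to 3 without control library 1, with Hspa1b at -0.20 and Hspa1a at -0.12, and to 9 without control library 2; in the interaction from 1 to 7 without control library 1 and to 4 without busulfan library 3 or L.J. library 3; in the averaged L.J. difference from 10 to 8 without the 3 libraries of high acinar score; and in the averaged busulfan difference from 1 to 3 in that fit. In busulfan plus L.J. minus L.J. 1 was higher without each library in turn.

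With 3 libraries per group and unknown depth, differences of the low-level Hspa1a and Hspa1b are the least precise.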
